A study of Mus musculus with 4 samples.

Results

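The genes described here are 10 transcriptional targets of YAP and TEAD, namely Cyr61, Ctgf, Ankrd1, Amotl1, Amotl2, Ptpn14, Crim1, Nt5e, F3 and Dlc1. They were taken by symbol from 2 deposited gene tables of 35604 rows each, 1 for cultured cells and 1 for tumours. All 10 had a row in both tables, but Amotl2 had no estimate in culture (status FAIL). At the minimum of 1 FPKM (fragment numbers corrected for the length of the transcript and for library size) in either library of a table, 8 of the 10 could be compared in culture and all 10 in tumours. Ctgf was the other gene left out in culture.

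Merlin, the product of Nf2, acts upstream of the Hippo kinases, which phosphorylate YAP and its relative TAZ and keep them out of the nucleus. YAP and TAZ that reach the nucleus bind TEAD factors and turn on genes of the matrix, the cytoskeleton and of feedback on YAP itself. Loss of merlin is therefore classically tied to high YAP activity, including in Schwann cells and their tumours.

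All 4 libraries came from ESC-FC1801, a single line of mouse embryonic Schwann cells on the FVB/N background that carries Nf2 Flox/Flox and was made NF2-/- in vitro with Ad-Cre, an adenovirus that delivers Cre recombinase. The cultured cells were kept in a serum-free medium with neuregulin-β1 and forskolin and received DMSO, or the HSP90 inhibitor NXD30001 at 1 µM, for 24 h. The tumours were grown from the same line in mice that were dosed 3 times weekly over 4 weeks with vehicle or with NXD30001 at 100 mg/kg. The strain, age and sex of the host mice and the time from last dose to collection are not given in the sources used here. Every group thus lacked Nf2 in the Schwann line by its label, and no library with intact Nf2 stands beside them. The tumours also hold cells of the host, whose genotype is not described in the labels. Each group has 1 library, so no value has a replicate error and no test was run. Higher and lower refer to that pair of libraries, and a called gene is one marked significant in the authors' deposited table.

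Depth is not given by FPKM. Genes whose error in the tables equals that of 1 fragment in each library put the treated library at 1.05 times the depth of its control in culture (40 genes) and at 1.20 times in the tumours (56 genes). The size of error that the authors' tables imply for a ratio was 0.52 to 1.12 (log2) for the 8 genes in culture, with a median of 0.82, and 0.16 to 0.44, with a median of 0.31, for the 10 genes in tumours. This error covers no biological spread. Among 9 Schwann cell markers, Sox10, the lineage transcription factor, was at 8.42 and 4.40 FPKM in DMSO and treated cells and at 47.0 and 139.8 FPKM in vehicle and treated tumours. S100b, another defining marker of the lineage, was under 1 FPKM in all 4 libraries.

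Promoters are shown for genes whose entry in the RefSeq promoter table holds the TEAD motif GGAATG, and for F3 with an AP-1 motif. The genes were listed as targets of TEAD, so this motif in their promoters is no independent finding. Its part in the differences between libraries was not tested. The windows run from 250 bases before to 50 bases after the RefSeq start on build GRCm38.p6, 5′ to 3′ on the gene's strand, and capitals mark GGAATG on either strand (read as CATTCC on the reverse) or, in F3, TGAGTCA. The Cyr61 window is chr3:145649936-145650235 on the minus strand, that of Crim1 chr17:78199998-78200297 on the plus strand, that of Ptpn14 chr1:189728018-189728317 on the plus strand and that of Ankrd1 chr19:36119795-36120094 on the minus strand. Amotl2 (chr9:102717554-102717853, plus strand) is the other gene with the TEAD motif, and F3 (chr3:121723287-121723586, plus strand) is the only one with the AP-1 motif.
Cyr61: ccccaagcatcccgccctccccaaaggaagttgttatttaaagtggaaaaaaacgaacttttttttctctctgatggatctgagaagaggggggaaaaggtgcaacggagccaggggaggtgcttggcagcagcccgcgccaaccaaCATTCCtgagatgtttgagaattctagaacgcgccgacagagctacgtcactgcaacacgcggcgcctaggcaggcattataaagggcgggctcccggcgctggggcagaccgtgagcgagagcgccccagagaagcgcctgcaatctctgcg
Crim1: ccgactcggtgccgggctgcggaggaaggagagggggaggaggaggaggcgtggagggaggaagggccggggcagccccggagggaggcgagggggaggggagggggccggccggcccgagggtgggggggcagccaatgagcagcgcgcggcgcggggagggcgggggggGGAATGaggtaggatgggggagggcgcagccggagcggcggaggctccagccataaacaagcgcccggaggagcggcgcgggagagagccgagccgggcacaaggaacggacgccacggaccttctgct
Ptpn14: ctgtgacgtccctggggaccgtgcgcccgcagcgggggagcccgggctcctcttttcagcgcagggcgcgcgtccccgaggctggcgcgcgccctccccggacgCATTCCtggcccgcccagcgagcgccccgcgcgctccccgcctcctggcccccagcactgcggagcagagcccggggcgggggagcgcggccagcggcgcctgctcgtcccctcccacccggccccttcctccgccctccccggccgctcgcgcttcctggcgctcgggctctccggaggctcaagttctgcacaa
Ankrd1: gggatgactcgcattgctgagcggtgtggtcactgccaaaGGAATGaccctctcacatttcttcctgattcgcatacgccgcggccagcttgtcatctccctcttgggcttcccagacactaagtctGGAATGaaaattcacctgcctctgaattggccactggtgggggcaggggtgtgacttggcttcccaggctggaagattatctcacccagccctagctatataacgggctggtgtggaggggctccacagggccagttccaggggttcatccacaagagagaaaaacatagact
Amotl2: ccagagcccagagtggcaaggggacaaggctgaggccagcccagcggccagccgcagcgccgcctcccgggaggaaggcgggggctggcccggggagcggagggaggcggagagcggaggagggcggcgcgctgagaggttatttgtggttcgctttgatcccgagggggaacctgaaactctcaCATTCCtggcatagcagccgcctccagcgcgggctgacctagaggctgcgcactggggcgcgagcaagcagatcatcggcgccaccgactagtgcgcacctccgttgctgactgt
F3: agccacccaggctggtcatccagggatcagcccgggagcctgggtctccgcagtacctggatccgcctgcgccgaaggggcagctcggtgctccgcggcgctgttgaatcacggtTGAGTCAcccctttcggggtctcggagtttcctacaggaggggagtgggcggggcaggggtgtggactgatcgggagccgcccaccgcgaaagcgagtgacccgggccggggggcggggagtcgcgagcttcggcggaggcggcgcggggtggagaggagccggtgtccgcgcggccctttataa

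GGAATG, the core that TEAD factors recognise, occurred in 5 of the 8 promoters in the table, once each in Cyr61, Crim1, Ptpn14 and Amotl2 and 2 times in Ankrd1. It begins 103 bases before the start in Cyr61, 79 in Crim1, 146 in Ptpn14, 65 in Amotl2, and 210 and 123 in Ankrd1. Of all 32851 promoter windows of this length, 14.7% held it, and of the 9690 windows with a GC content of 60% or more, 9.40% did. Amotl1, Nt5e and F3 had no match, and Ctgf and Dlc1 were not in the table. TGAGTCA, the AP-1 site, which is often found close to TEAD sites in enhancers, was present in F3 alone, 135 bases before its start, against 5.20% of all windows. The SRF CArG box (CC, 6 bases of A or T, then GG) was in none of the 8 against 1.63% of windows. The heat shock element (GAA, TTC and GAA, each 2 bases apart) was in none against 0.603%. All motifs were searched on both strands, and none overlapped another. A match is a string of letters and not a measured site, and enhancers outside these windows were not searched.

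In treated cultures, most of the targets that could be read were higher than with DMSO. In all, 7 genes lay above 0 and 1 below, where Nt5e, which reached the minimum through the treated library alone, could only lie above. Of the 8, 5 were at least 2-fold higher on the log2(FPKM + 1) scale, while none was 2-fold lower. Across all 12676 genes compared in culture, 12.6% were 2-fold higher and 24.8% 2-fold lower. The median difference of the 8 genes was 1.23, against -0.25 for all genes, so that relative to the bulk of the transcriptome it was 1.48. With the minimum set on the mean of both libraries, which leaves out Nt5e, 5 of 7 were 2-fold higher, against 12.4% of all genes. The median of these 7 was 1.26. With differences centred on the median of all genes, lower genes made up 50.8% of all changed genes instead of 66.3%. The count of 5 of 8 then stayed at 5, while the share of all genes 2-fold higher was 17.8% instead of 12.6%. Crim1 and Ptpn14, 2 of the 8, were called higher in the authors' deposited table and none was called lower, against 2.75% and 7.14% of all genes. The members were chosen with these data in view, so the counts are a description.

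**Figure D1:**
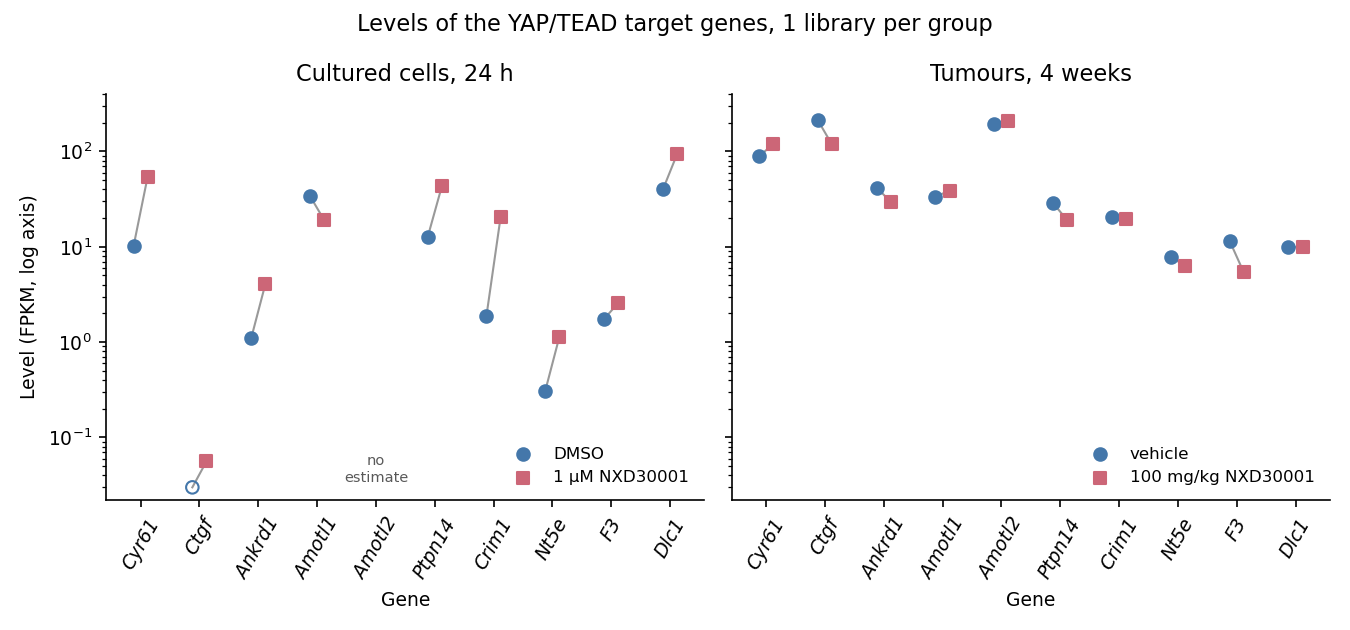
Level in FPKM on a log axis of each gene in each of the 4 libraries, 1 point per library, with circles for DMSO or vehicle and squares for NXD30001. An open circle at the bottom marks a gene listed at 0, and Amotl2 has no estimate in culture. Lines rise steeply for Crim1 (1.90 to 20.5 FPKM) and Cyr61 (10.1 to 54.1 FPKM) in culture and are short in the tumours.

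Cyr61 and Ctgf encode secreted matricellular proteins of the CCN family and are the most widely used readouts of YAP. Cyr61 (ENSMUSG00000028195, chromosome 3 from 145309942 to 145312944 on mm9, the build of every locus given from the files) was at 10.1 FPKM in DMSO cells and 54.1 FPKM in treated cells. The treated library was the higher one by a ratio of 5.36, with a 95% range of 1.77 to 16.2 in the authors' error model, and the deposited q was 0.0692, short of their call at 0.05. Ctgf (ENSMUSG00000019997, chromosome 10 from 24269247 to 24318489) was listed at 0 in DMSO cells and at 0.0562 FPKM in treated cells. Both values lie at the floor of the table, so culture gave no readable comparison for this gene. Its locus is given for 2 further rows, AC099695.2 at 3.42 and 1.14 FPKM and AC099695.1 at 0 and 0.927 FPKM, and reads of this locus are not assigned with certainty.

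Other genes of the CCN family did not move as a block in culture. Wisp1, the family member also known as CCN4, was at 13.4 FPKM in DMSO cells and 73.2 FPKM in treated cells, a difference of 2.37 and a call in the authors' deposited table. Nov (CCN3) was at 4.31 and 2.11 FPKM, with a difference of -0.77 that is smaller than its implied error of 1.05. Wisp2 (CCN5) stayed under 1 FPKM in both cultures.

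Ankrd1 encodes a nuclear ankyrin-repeat cofactor best known from stressed heart and muscle. It was at 1.10 FPKM in DMSO cells and 4.04 FPKM in treated cells (ENSMUSG00000024803, chromosome 19 from 36186455 to 36194330). This is a ratio of 3.68, but the 95% range from 0.866 to 15.6 holds 1. Of 8 skeletal muscle markers, 7 were under 1 FPKM in both cultures. Of the smooth muscle genes in the SRF and MRTF list, Myl9 was at 5.04 and 13.1 FPKM. Tpm2 was at 0.240 and 3.79 FPKM, Cnn1 at 0.454 and 1.41 FPKM, and Tagln was listed at 0 and at 1.22 FPKM. Tpm2, Cnn1 and Tagln passed the minimum through the treated library alone and so could only be higher. Acta2 (0.0645 and 0.123 FPKM) and Actg2 (0.141 and 0.0631 FPKM) were under 1 FPKM in both cultures. The part of smooth muscle genes in the value of Ankrd1 was not tested.

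The feedback inhibitors differed in direction. Ptpn14, a phosphatase that binds YAP and retains it outside the nucleus, was at 12.6 FPKM in DMSO cells and 42.9 FPKM in treated cells (ENSMUSG00000026604, chromosome 1 from 191552147 to 191700574). Its ratio of 3.40 had a 95% range of 1.67 to 6.93 and a q of 0.0232 in the authors' deposited table. Amotl1, an angiomotin that tethers YAP at junctions and actin (ENSMUSG00000013076, chromosome 9 from 14346410 to 14419444), was the one gene below 0, at 34.1 FPKM in DMSO cells and 19.1 FPKM in treated cells. Its ratio of 0.560 (95% range 0.215 to 1.46) is inside the error of the table. Amot, the founding member of that family, was at 8.64 and 21.2 FPKM, a difference of 1.20 without a call, and in tumours at 22.6 and 16.0 FPKM. Amotl2 (ENSMUSG00000032531, chromosome 9 from 102619002 to 102635748) could not be read in culture, so 2 of the 3 angiomotins were compared there, 1 higher and 1 lower. Lats2, a Hippo kinase gene that YAP itself induces, at 34.2 and 79.8 FPKM (difference 1.20), was not called and has a second row at its locus.

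Among the membrane proteins, Crim1 had the largest ratio of all 8 genes. It encodes a transmembrane protein with cysteine-rich repeats that binds BMPs, and went from 1.90 FPKM with DMSO to 20.5 FPKM with NXD30001 (ENSMUSG00000024074, chromosome 17 from 78419504 to 78774477). The ratio was 10.8 (95% range 3.30 to 35.2), with a q of 0.00380 in the authors' deposited table. Another row, AC154366.1, shares this locus but was listed at 0 in all 4 libraries. Nt5e, the ectonucleotidase CD73 that makes adenosine from AMP (ENSMUSG00000032420, chromosome 9 from 88222471 to 88266924), was at 0.310 FPKM in DMSO cells and 1.14 FPKM in treated cells. It passed the minimum through the treated library alone and so could only have been higher, and its range of 0.803 to 16.9 holds 1. F3, tissue factor, the cell-surface trigger of clotting (ENSMUSG00000028128, chromosome 3 from 121426527 to 121437960), was at 1.75 and 2.58 FPKM (ratio 1.48, 95% range 0.480 to 4.54).

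Dlc1, a RhoGAP that switches off RhoA at focal adhesions, was the most abundant target in both cultures, at 40.1 FPKM in DMSO cells and 93.6 FPKM in treated cells (ENSMUSG00000031523, chromosome 8 from 37630805 to 37796108). Its ratio of 2.34 had a 95% range of 0.941 to 5.80. Its paralogue Stard13 (DLC2) was at 49.2 and 122.6 FPKM, a difference of 1.30, whereas Rhoa differed by -0.16. Neither of the DLC genes was called. In order of level, DMSO cells held Dlc1, Amotl1, Ptpn14, Cyr61, Crim1, F3, Ankrd1, Nt5e and Ctgf, and treated cells Dlc1, Cyr61, Ptpn14, Crim1, Amotl1, Ankrd1, F3, Nt5e and Ctgf. Cyr61, Crim1 and Ankrd1 stood higher in the order of treated cells, Amotl1 and F3 lower, and the other 4 kept their places.

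**Figure D2:**
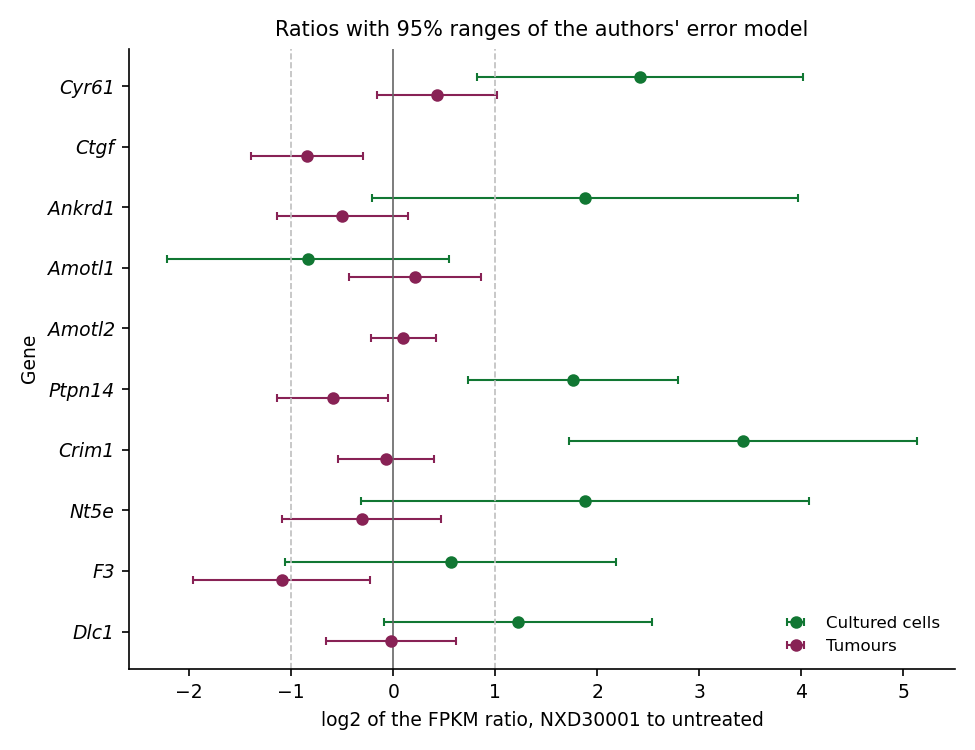
log2 of the FPKM ratio of NXD30001 to untreated for each gene, with green points for culture and purple points for tumours. Bars are the 95% range of the error implied by the authors' tables and hold no biological spread; dashed lines mark a 2-fold ratio. In culture the bars of Crim1, Cyr61 and Ptpn14 lie wholly above 0, and in the tumours those of Ctgf, Ptpn14 and F3 lie wholly below 0.

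In the tumours none of the 10 was 2-fold higher or lower on the log2(FPKM + 1) scale and none was called in the authors' deposited table, although 3 were above 0 and 7 below. Of all 15550 genes compared in tumours, 7.32% were 2-fold higher and 6.93% 2-fold lower, and 3.14% and 2.45% were called. The median difference of the 10 genes was -0.17, against -0.03 for all genes. Levels of the targets in the vehicle tumour spread widely. It held more Ctgf than 95.2% of the genes compared and more Amotl2 than 94.8%. At the other end, F3 stood above 42.15% of them, Dlc1 above 38.75% and Nt5e above 33.7%.

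Ctgf and Cyr61 had opposite signs in the tumours. Ctgf was at 212 FPKM in the vehicle tumour and 118 FPKM in the treated one, a ratio of 0.557 with a 95% range of 0.380 to 0.817 and a q of 0.0853 in the authors' deposited table. Cyr61 was at 88.7 and 119 FPKM, a ratio of 1.35 with a range of 0.893 to 2.03. These ranges do not overlap, and the level of Ctgf above that of Cyr61 in the vehicle tumour had closed in the treated one. AC099695.2, which shares the Ctgf locus, was at 13.8 and 3.98 FPKM. Wisp1 was at 76.6 FPKM in the vehicle tumour and 28.1 FPKM in the treated one, a difference of -1.41 that the authors' deposited table called lower, the reverse of its direction in culture. Nov (18.6 and 16.6 FPKM) and Wisp2 (5.44 and 7.41 FPKM) differed by less than their implied errors of 0.40 and 0.51.

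Of the other targets, F3 had the lowest ratio, 0.468 (95% range 0.257 to 0.854), from 11.5 FPKM with vehicle to 5.40 FPKM with NXD30001. Its difference of -0.97 is just inside 2-fold on the log2(FPKM + 1) scale, where changes of low genes come out too small. Ptpn14 was at 28.6 and 19.0 FPKM, a ratio of 0.663 with a range of 0.454 to 0.968 and no call. Ankrd1 was at 41.8 and 29.5 FPKM, and its range from 0.452 to 1.10 holds 1.

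The remaining genes were near a ratio of 1. Amotl2, which carries the smallest implied error of all (0.16), was at 195.5 and 209.5 FPKM, with a 95% range of 0.857 to 1.34. Amotl1 was at 33.5 and 38.8 FPKM, Crim1 at 20.4 and 19.4 FPKM, Nt5e at 7.84 and 6.32 FPKM and Dlc1 at 10.01 and 9.83 FPKM. Crim1, which had the largest ratio in culture, thus had a ratio of 0.950 in the tumours with a range of 0.685 to 1.32. By level the vehicle tumour held Ctgf, Amotl2, Cyr61, Ankrd1, Amotl1, Ptpn14, Crim1, F3, Dlc1 and Nt5e in that order. With NXD30001 the first 3 were Amotl2, Cyr61 and Ctgf, the last a pair with 119 and 118 FPKM.

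Cell type markers also differed between the 2 tumours, and in bulk RNA fewer cells of a type and less RNA per cell cannot be told apart. Each of 8 endothelial markers was lower after treatment, with a summed level of 91.7 FPKM in the vehicle tumour and 37.2 FPKM in the treated one, and all 6 macrophage markers were lower (326 and 182.5 FPKM). Fibroblast markers were lower in 6 of 7 (4115 and 3329 FPKM), while 7 of 7 Schwann markers of at least 1 FPKM in both tumours were higher (206 and 675.5 FPKM summed over the list). Pericyte markers were lower in 4 of 6 with a median of -0.15, although their sum went from 38.5 to 61.0 FPKM through Pdgfrb (20.9 and 45.9 FPKM). Tek among the endothelial and Abcc9 among the pericyte markers passed the minimum through 1 library alone, which fixes their direction. T cell markers were all under 1 FPKM. The part of host cells, vessel-associated and stromal cells included, in the values of the targets was not tested for any of the 10, whether higher or lower. In culture the endothelial, macrophage and skeletal muscle lists summed to at most 2.44 FPKM in either library, and the fibroblast markers Dcn, Lum and Dpt were under 1 FPKM. The fibroblast list as a whole summed to 1295 and 1130 FPKM there.

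**Figure D3:**
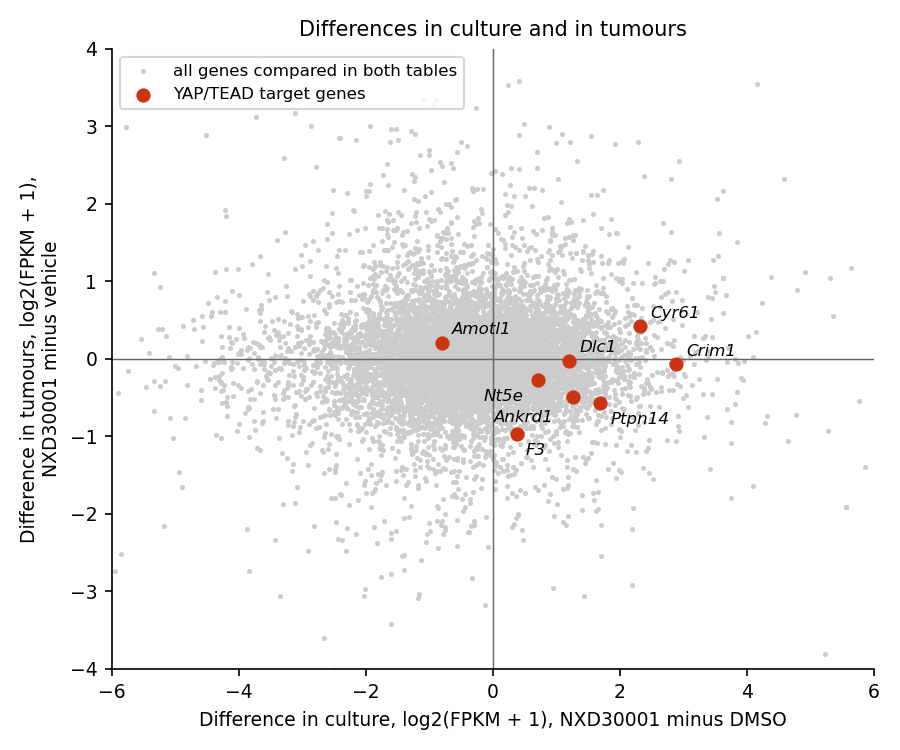
Difference in culture (horizontal) against difference in tumours (vertical), both on the log2(FPKM + 1) scale, for genes compared in both tables (grey, points beyond the axes not drawn) and for the 8 targets among them (red). The targets spread from -0.80 to 2.89 along the culture axis but only from -0.97 to 0.42 along the tumour axis.

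Opposite signs in culture and in tumours were seen for 7 of the 8 targets compared in both tables, and for 6 once differences were centred on the median of all genes, which puts Dlc1 at 0.01 in tumours. Over all 11559 genes compared in both tables, 49% had opposite signs without centring, and no centred share was computed. The tumour differences of Amotl1, Crim1, Nt5e and Dlc1 were smaller than their implied errors, and the sign of Nt5e in culture was fixed by the minimum. In culture the difference of F3 (0.38) was also smaller than its implied error (0.83). The exception was Cyr61, with 2.31 and 0.42. Ptpn14 had 1.69 in culture and -0.57 in tumours, and its 95% ranges, 1.67 to 6.93 and 0.454 to 0.968, do not overlap. The ranges of Crim1 (3.30 to 35.2 and 0.685 to 1.32) do not overlap either. For Ankrd1, Nt5e, F3, Dlc1, Amotl1 and Cyr61 they do. Ranges lay apart for 2 of 8 targets in all, and for 12.4% of the 11141 genes with a range in both tables. Dose, duration and the presence of host tissue all differ between the comparisons and cannot be told apart. Among 6044 genes that reached 10 FPKM in 1 or more libraries of each table, those whose pair of differences lay nearest to the median pair of the 8 targets (1.23 and -0.17) were AL606724.1, Ranbp2, Nme2, Stk4 and Sptlc2, at distances of 0.027 to 0.045 in the plane of the 2 differences. The likeness rests on those 2 differences alone.

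Further genes of a widely used YAP/TAZ signature divided in culture. Of the 14 not among the targets above, 11 were compared, 4 at least 2-fold higher, 3 at least 2-fold lower and 4 within 2-fold, with a median of 0.24. Gadd45a, a growth arrest gene, was at 5.73 and 72.2 FPKM, and Tgfb2, a TGF-beta ligand, at 0.170 and 8.05 FPKM, both called higher in the authors' deposited table and both at loci shared with another row. Tgfb2 passed the minimum through the treated library alone. On the other side, Myof, a membrane repair protein gene, was at 61.1 and 17.9 FPKM and called lower, the receptor kinase gene Axl was at 129 and 40.8 FPKM and Dock5 at 14.5 and 3.90 FPKM. In the tumours 13 were compared, of which 11 were within 2-fold, Lats2 was higher at 20.8 and 43.0 FPKM and Ccdc80 lower at 53.4 and 23.9 FPKM, both called. Axl was at 1043 and 1342 FPKM there.

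**Figure D4:**
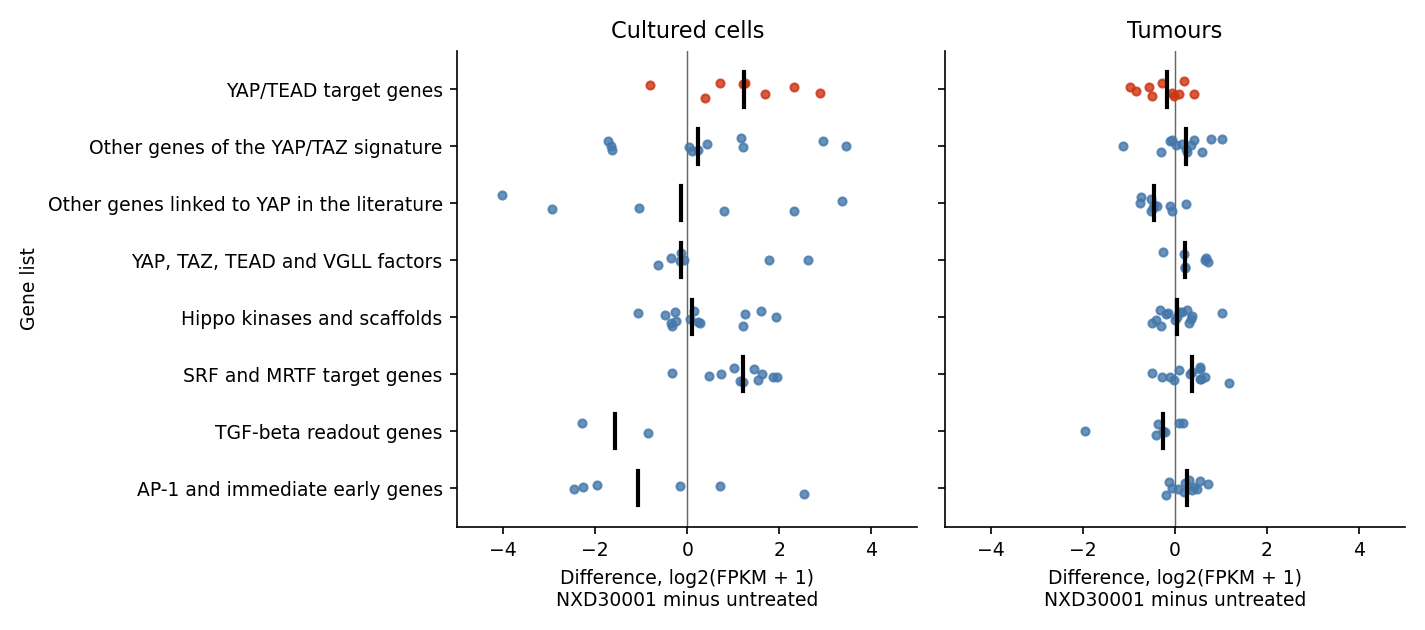
Differences on the log2(FPKM + 1) scale for the targets (red) and for genes of 7 other lists (blue), 1 point per gene compared, with the median of each list as a black bar; the targets themselves are left out of the other lists. In culture the targets (median 1.23) and the SRF and MRTF list (median 1.22) lie mostly above 0, while the other signature genes spread over both sides. In the tumours the targets lie between -0.97 and 0.42, and the lowest point is Ltbp2 of the TGF-beta list.

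Genes more loosely linked to YAP did not share one direction in culture. Of 10 listed, 6 were compared, 2 of them 2-fold higher and 3 2-fold lower, with Jag1 (1.42 and 24.1 FPKM) and Thbs1 (8.32 and 45.3 FPKM) higher and Birc5, a mitosis gene (67.0 and 3.15 FPKM), and Ccnd1, cyclin D1 (235 and 29.7 FPKM), lower, all 4 called in the authors' deposited table. In tumours all 10 were within 2-fold, with a median of -0.46.

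Of the genes for YAP, TAZ, the TEAD factors and Vgll4, 5 of 7 were within 2-fold in culture, all but a pair of TEAD genes. In tumours all 7 were within 2-fold. Vgll4 was at 21.5 and 13.4 FPKM in culture and at 49.3 and 56.7 FPKM in tumours. Yap1 was at 38.1 and 36.2 FPKM in culture and 56.4 and 66.4 FPKM in tumours, and Wwtr1, which encodes TAZ, at 137.7 and 123 FPKM and at 32.0 and 37.4 FPKM. Tead4 was at 3.05 FPKM in DMSO cells and 23.97 FPKM in treated cells, the only called factor, and Tead3 at 3.57 and 14.8 FPKM, with a difference of 1.79 and an error of 1.19. Tead1, the most abundant TEAD gene in culture, was at 173 and 157 FPKM, and Tead2 at 13.9 and 10.7 FPKM. In tumours Tead2, Tead3 and Tead4 differed by 0.67, 0.73 and 0.66 and Tead1 by -0.27, none called. Nf2 itself was at 15.9 and 12.5 FPKM in culture and 57.2 and 42.8 FPKM in tumours, which as a whole-gene level does not show the deletion. Of the 14 Hippo kinase and scaffold genes compared in culture, 4 were 2-fold higher (Wwc2, Wwc1, Stk4 and Lats2) and 1, Map4k4, 2-fold lower, none called.

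Several targets also answer to other factors, and lists of those factors' genes were set beside them. SRF and MRTF targets, genes of the contractile cytoskeleton, were at least 2-fold higher in 8 of 11 in culture with a median of 1.22 and 1 call (Tpm2, 0.240 and 3.79 FPKM). Tagln, Tpm2 and Cnn1 passed the minimum through the treated library alone and could only be higher. Among the 8 genes of at least 1 FPKM in both libraries, 6 were 2-fold higher. In tumours 1 of 13 was 2-fold higher and the median was 0.37. Acta2 (82.0 and 186 FPKM) and Flna (1447 and 2165 FPKM) were called higher there, and none was called lower. TGF-beta readout genes were mostly unreadable in culture, with 5 of 7 under 1 FPKM in both libraries. Those compared, Tgfbi (68.3 and 13.1 FPKM) and Skil (15.3 and 7.95 FPKM), were lower. AP-1 and immediate early genes had 6 of 12 compared in culture with a median of -1.06, in which Fosl1 was at 12.2 and 1.73 FPKM, Egr1 at 3.29 and 0.0929 FPKM and Atf3 at 2.80 and 20.98 FPKM, the last 2 called. Egr1 passed the minimum through the DMSO library alone and could only be lower. In tumours all 12 were within 2-fold.

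Partners of the enzymes and receptors among the targets were also read. F2r, the thrombin receptor downstream of the clotting that tissue factor starts, was at 43.7 and 269.6 FPKM in culture and called higher, and at 83.9 and 116 FPKM in tumours. Tfpi, the inhibitor of tissue factor, was at 4.02 and 1.39 FPKM in culture and at 9.36 and 4.60 FPKM in tumours, where its implied error was 3.45. Upstream of CD73, the ATP-degrading enzyme gene Entpd1 (CD39) was at 15.4 and 0.592 FPKM in culture, called lower but with its direction fixed by the minimum, and at 123.8 and 60.4 FPKM in tumours. Its paralogue Entpd2 was at 4.32 and 14.5 FPKM in culture and at 6.40 and 53.4 FPKM in tumours, where it was called higher. Of the DLC paralogues in tumours, Stard8 was at 16.1 and 4.13 FPKM and called lower, and Stard13 at 52.8 and 89.1 FPKM and called higher, on either side of Dlc1.

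Levels differ between the untreated culture and the untreated tumour, but the 2 tables were normalized separately and differ with base composition. The median of the DMSO culture level minus the vehicle tumour level went, over bands of 4 GC points, from 1.31 at 36 to 40% GC to -3.09 at 60 to 64% GC on the log2(FPKM + 1) scale. Differences within a table moved far less, from -0.39 to 0.05 in culture and from -0.10 to 0.16 in tumours over the same bands. The transcripts of the targets have a GC content of 46.3 (F3) to 56.6% (Amotl2). Set against genes of the same band, Ctgf had a culture minus tumour difference of -7.74, below all but 0.243% of its 3287 band genes, and Ankrd1 one of -4.35, with 2.10% of its band below it. The Ctgf value rests on a DMSO level listed at 0 FPKM, at the floor. Its locus is shared with AC099695.2, at 3.42 FPKM in DMSO cells, and reads there are not assigned with certainty. The vehicle tumour also holds host cells, and their part in these differences was not tested. Nt5e, F3 and Crim1 had 6.55%, 10.1% and 9.92% of their bands below them, and Cyr61 21.0%. Amotl1 (68.8%) and Ptpn14 (65.7%) lay above their band medians, and Dlc1 was 1.90 higher in culture, above 93.7% of its band.

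**Figure D5:**
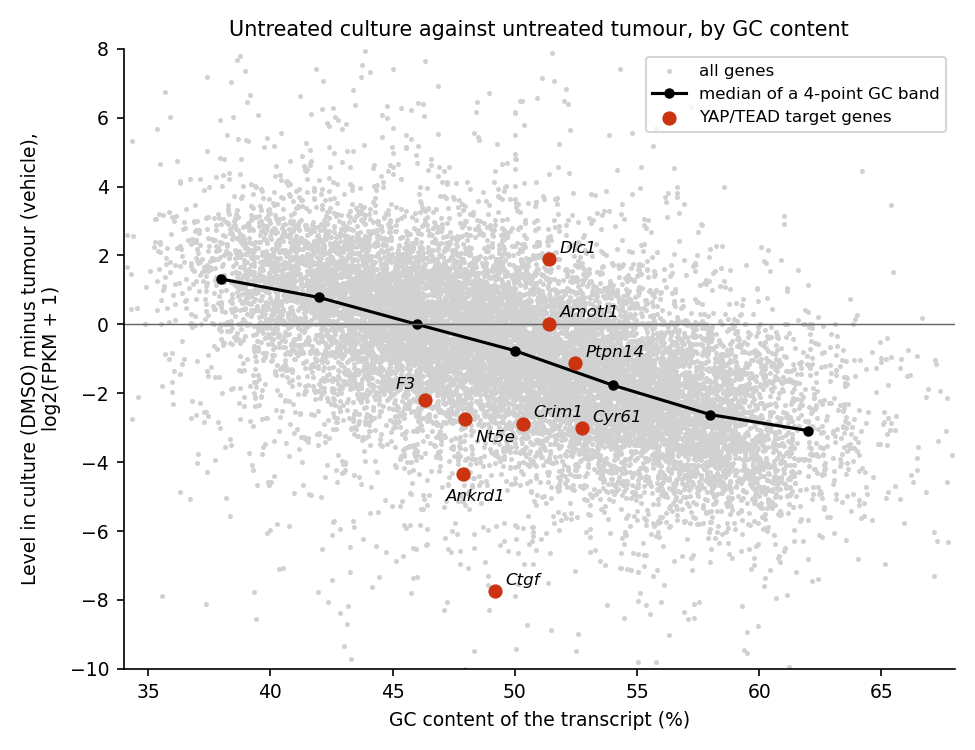
Level in DMSO culture minus level in vehicle tumour (log2(FPKM + 1), vertical) against the GC content of the transcript in percent, for all genes (grey, points beyond the axes not drawn), with the median of each 4-point band as a black line and the targets in red. The line falls from 1.31 to -3.09. Ctgf, which was listed at 0 FPKM in DMSO culture, and Ankrd1 lie far below it and Dlc1 above it.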

How the data were processed

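Per the submitters' processing notes, CASAVA, TopHat 1.2.0, Cufflinks 1.0.2 and Cuffdiff were used with the mouse build mm9. For strandedness, the sources used here give nothing. The authors deposited levels in FPKM, and, per the file headers, the natural log of the fold, a statistic and a q-value, all treated as scores, since q-values reached 2.05 and folds against 0 hold a placeholder. Left out were rows marked FAIL (705 and 347, culture first) or LOWDATA (61 and 449). Of the 35604 rows, 12676 and 15550 had at least 1 FPKM in either library and were compared as log2(FPKM + 1), treated minus untreated. The implied error is the log fold divided by the statistic, and ranges are 1.96 times it.

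The authors' starts count from 0 (end minus start equalled the GENCODE length for 10580 genes and the length less 1 for 268), so 1 was added. Symbols in several rows entered lists with their highest row. Shared loci were not marked for every gene named. Yap1, Wwtr1, Tead1, Tead2, Stk4, Wwc2, Ccnd1, Entpd2 and Tagln are among those whose locus is also given for other rows. GC content came from GENCODE M21 transcripts by gene ID (93.8% and 93.4% of compared genes), and promoters from RefSeq on GRCm38.p6, matched by symbol or older symbol for 8 of 10 genes. Named genes were the members, the YAP, TAZ and TEAD genes, Nf2, the CCN and angiomotin families, up to 4 genes per list with the largest difference, and the 5 nearest in pattern. Other list genes named were picked after their values were seen. The members and lists were chosen with earlier results of these data known. Scripts (Python 3.11.15, pandas 2.3.3, numpy 2.4.6) were tested on simulated data.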

Additional observations from a re-analysis of the deposited data

Results flagged for a closer look

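Among the 8 targets compared in both tables, 7 had opposite signs in culture and in tumours, and the difference between the comparisons was not tested, with 1 library per group. Opposite signs were found in 49% of all 11559 genes compared in both, and the culture sign of Nt5e was fixed by the minimum level. The culture difference minus the tumour difference (log2(FPKM + 1)) was 2.96 for Crim1, 2.26 for Ptpn14, 1.75 for Ankrd1, 1.35 for F3, 1.23 for Dlc1, 0.981 for Nt5e and -1.01 for Amotl1. The tumour differences of Crim1 (-0.07) and Dlc1 (-0.02) are far inside their implied errors (0.24 and 0.33), and that of Dlc1 was 0.01 when differences were centred on the median of all genes. The culture difference of F3 (0.38) is inside its implied error (0.83).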

How the results depend on the processing

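No paired analysis was possible because each group has 1 library. Leaving out a library was likewise not possible, and the planned search of proteins for WW-binding motifs was not run, since no protein sequences were used here. The alternatives were pseudocounts of 0.1 and 5, centring on the median of all genes, upper quartile scaling, minimum levels of 5 FPKM and of none, leaving out shared loci, the authors' calls in place of the 2-fold rule and, chosen after seeing the data, centring within GC bands and a minimum of 1 FPKM on the mean of both libraries. Of 58 counts and medians recomputed, 56 stayed within 1.5 times (counts) or within the members' median implied error (medians). That error is 0.82 in culture and 0.31 in tumours, a wide bound for a median. In tumours the changed minimum levels kept all 10 targets, so counts and medians there could not move. By the 2-fold rule the number of targets higher in culture ranged from 4 to 6. With the authors' calls, 2 targets in place of 5 were higher in culture. With a pseudocount of 0.1, 1 target (F3) in place of 0 was 2-fold lower in tumours. The culture median ranged from 0.85 to 1.69 and that in tumours from -0.19 to -0.09. Of 140 differences of single genes, 139 moved by less than their implied error, and none past 2-fold changed sign. The exception was Crim1 in culture, at 1.89 with a pseudocount of 5. The settings for the minimum level change which genes are compared but not a gene's own difference, so those entries of the 140 could not move. No target was past 2-fold in tumours, so the check of signs covers culture alone. Ctgf, at the floor of the table, and Amotl2, with status FAIL, could not be read in culture, and the reason was not tested.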

Other observations

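BMP pathway genes, listed because Crim1 binds BMPs, had 8 of 13 compared in culture, of which 4 were 2-fold higher or more and 2 were 2-fold lower or more. Bmp4, a ligand gene whose locus is shared with other rows, and Nog, which encodes the antagonist noggin, were listed at 0 with DMSO and at 2.98 and 1.61 FPKM with NXD30001, and so could only be higher, while Id2, a readout of BMP signalling, was at 6.04 and 1.50 FPKM. Crim1 itself was the only called gene of this list in culture. In tumours 11 were compared with a median of -0.41 and none was called.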
